A study of Mus musculus with 3 samples.

Results

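Regions of Nrf2 chromatin immunoprecipitation sequencing (ChIP-seq) were examined at 4 genes that supply the cell with glutathione: Slc7a11, Gclc, Gclm and Gss. A region was taken as a member when its highest position lay in a window of the mm9 mouse genome holding the gene with about 50 kb on each side. Of the 1256 regions in the deposited list, 5 met this rule: 1 at Slc7a11, 2 at Gclc, 2 at Gclm and 0 at Gss. The cells were Keap1-/- mouse embryonic fibroblasts, labelled as strain CD-1. The labels give their developmental stage as 8 to 10 weeks, although the source is given as embryonic fibroblasts. One library came from a rabbit monoclonal antibody that recognises the C-terminus of Nrf2 and one from a rabbit polyclonal antibody that recognises its N-terminus. The control library is labelled with an anti-rabbit IgG antibody, whereas the design text calls it input DNA. All 3 libraries carry the Keap1 deletion, so the series has no cells with Keap1, and no label says how many embryos or cell lines were used. The list is a single one for all 3 libraries. It therefore has no replicates and no value per antibody, the sequencing depth is unknown, no test between groups was possible, and neither the loss of Keap1 nor the cell type can be checked in it.

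Glutathione is a tripeptide of glutamate, cysteine and glycine, and is the main small thiol with which cells hold off oxidants and electrophiles. Slc7a11, also called xCT, is the transport subunit of the antiporter that brings in cystine, the oxidised form of cysteine, in exchange for glutamate. Gclc and Gclm are the catalytic and the modifier subunit of glutamate-cysteine ligase, which joins glutamate to cysteine in the rate-limiting step of the pathway. Gss is glutathione synthetase, which adds glycine in the last step. Nrf2 pairs with small Maf proteins at antioxidant response elements, and genes of this pathway are among its textbook targets. Keap1 normally hands Nrf2 to a ubiquitin ligase for degradation.

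The window of the cystine transporter gene held the tallest of the 5 regions, those of the ligase subunits held 2 lower regions each, and that of the synthetase held none. So 3 of the 4 windows held at least 1 region. When the chromosomes were divided into tiles of the same widths, a region was present in 6.83% of the tiles as wide as the Slc7a11 window (180 kb). The share was 5.41% for the Gclc width (140 kb), 4.73% for the Gclm width (120 kb) and 5.05% for the Gss width (130 kb). These tiles include sequence with few genes, and windows around other genes were not analysed here. The 4 genes and windows were also chosen with earlier results of these data known, so the tile shares are background and not a test.

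Heights are the authors' own values in a unit that is not given, and are set side by side only within this list. The whole list ran from 5 to 122.1 with a median of 10.1. The 5 members ran from 9.52 to 26.8 with a median of 13.4. Of them, 3 were taller than the median of the list, against 50.0% of all regions. All 5 had a height of 9 or more, against 70.5% of all regions. With 5 regions such counts are a description only.

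At Slc7a11, the region from 50241967 to 50242312 on chromosome 3 had a height of 26.8 at position 50242169. It ranked 49 of 1256 by height, so that 3.90% of the list was at least as tall. Among the 74 regions of chromosome 3 it ranked 2. It stood alone, with the nearest other region 1233 kb away. The region lay within the nominal gene, which is the window less 50 kb at each end, 7.83 kb from its right edge. Slc7a11 is read on the reverse strand in the promoter table, so the right edge is the side where transcription starts.

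At Gclm, the modifier subunit, the region from 121946402 to 121946762 on chromosome 3 had a height of 19.5 at position 121946562 and ranked 113 of 1256. It ranked 5 among the 74 regions of chromosome 3. Its highest position lay 3.44 kb outside the left edge of the nominal gene, which is the start side, since Gclm is read on the forward strand. The other region at Gclm, from 121998547 to 121998924, was lower, with a height of 13.4 and rank 321. It lay 28.7 kb beyond the right edge of the nominal gene, on the side of the neighbouring gene Dnttip2, and 52.2 kb from the first.

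At Gclc, the catalytic subunit, both regions were close to the middle of the list in height. The first, on chromosome 9 from 77592633 to 77593052, reached 9.88 at position 77592881 and ranked 676 of 1256, tied with 1 other. The second, from 77598334 to 77598650, reached 9.52 at position 77598496 and ranked 766. Among the 36 regions of chromosome 9 they ranked 27 and 30. They lay 5.62 kb from each other, 7.12 and 1.5 kb outside the left edge of the nominal gene, on the side of the neighbouring gene Klhl31. No strand was at hand for Gclc, so the left edge is not shown to be its start side. Both Gclc regions were lower than the median of the list, whereas both Gclm regions and the Slc7a11 region were above it. Whether the heights at the 2 ligase subunit genes differ beyond error cannot be tested with 1 list.

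At Gss, no region of the list fell in the window. The nearest regions were far off: one 796 kb past the right edge of the window, with a height of 10.6, and one 3409 kb before the left edge, with a height of 12.9. The list holds only regions that passed the authors' threshold, which is not given, so a weaker signal at Gss is not shown to be absent.

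**Figure D1:**
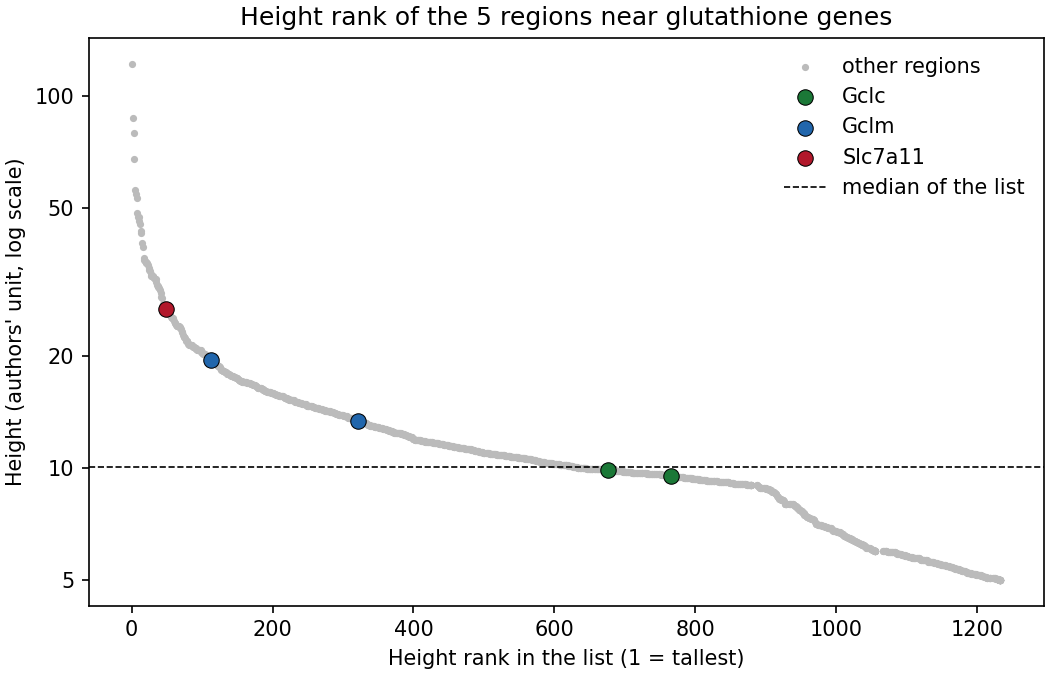
Height of each of the 1256 regions (y axis, authors' unit, log scale) against its height rank (x axis, 1 is the tallest). Grey points are other regions, coloured points are the 5 members and the dashed line is the median height of 10.1. The Slc7a11 region sits at rank 49, the Gclm regions at 113 and 321, and the Gclc regions at 676 and 766, below the median line.

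The exact distance from each region to a start site was not analysed here, because it needs an annotation of mm9. The distances above are to nominal edges, read from windows rounded to 10 kb that hold the gene with only about 50 kb on each side. For the 4 regions within 8 kb of a nominal edge of their gene, the side of the start site on which they lie is therefore not established. The second Gclm region was the only member farther than that from each nominal edge of its gene. A window can also hold parts of other genes. In the order of protein-coding genes on GRCm38, Slc7a11 lies between Pcdh18 and Noct, Gclc between Klhl31 and Elovl5, Gclm between Abca4 and Dnttip2, and Gss between Acss2 and Myh7b.

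The choice of window edge mattered little, since no region lay just outside any window. The nearest excluded region was 350 kb beyond the right edge of the Gclc window, with a height of 12.8. Of the members, the second Gclm region lay nearest to the edge of its window, and narrowing the windows by 25 kb on each side removed that one alone and left 4.

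**Figure D2:**
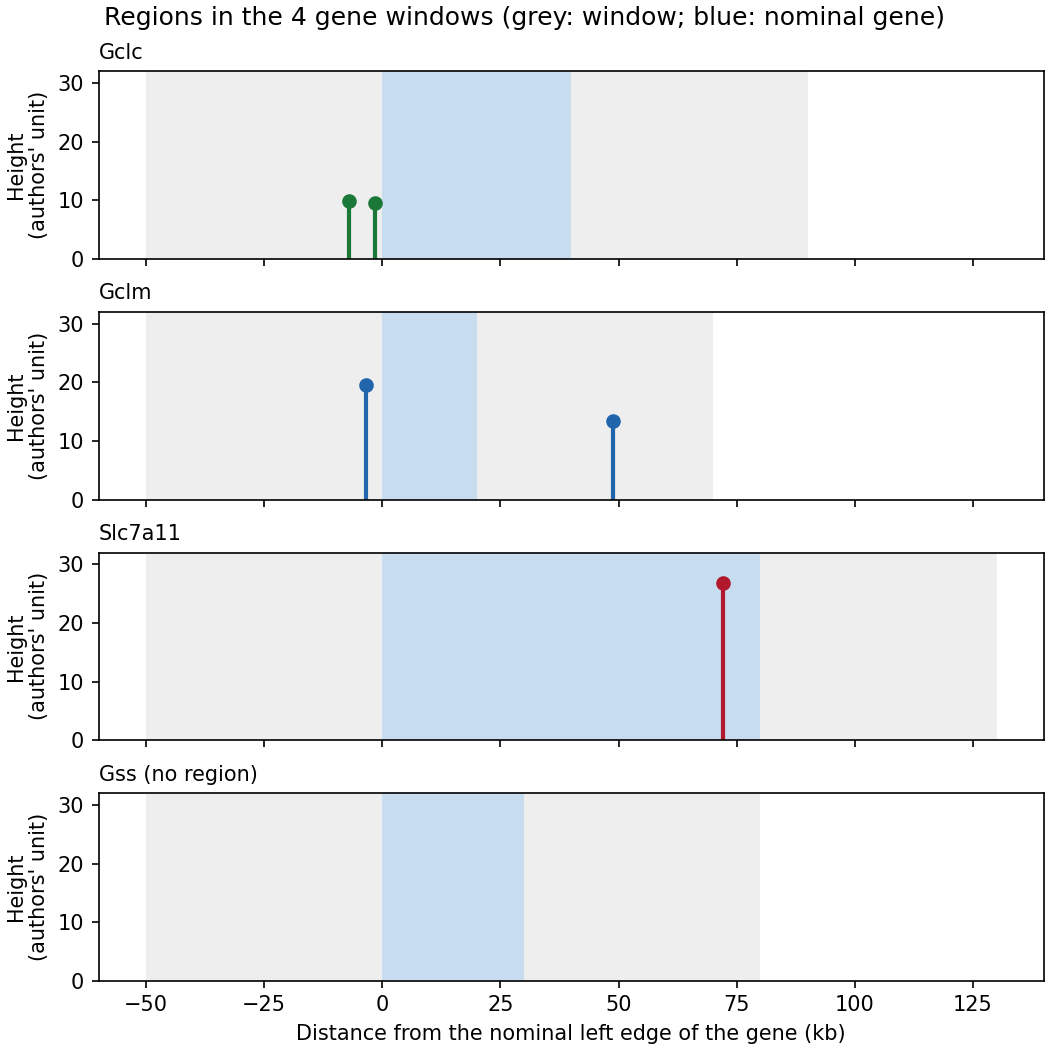
Regions in the 4 windows, with distance from the nominal left edge of the gene in kb (x axis) and height in the authors' unit (y axis). Grey bands are the windows, blue bands the nominal genes and each stem is 1 region. Stems stand at -7.12 and -1.5 kb for Gclc, at -3.44 and 48.7 kb for Gclm and at 72.2 kb for Slc7a11, and the Gss panel is empty.

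The widths of the members were 345 bp at Slc7a11, 360 and 377 bp at Gclm, and 419 and 316 bp at Gclc, against a median of 345 bp over all regions and a middle 50% range of 306 to 389 bp. Of the 5, 3 were wider than that median, against 49.6% of all regions. The widest member was the first Gclc region, and 200 regions of the list were wider still. The highest position lay 1.27 to 9.19% of the width from the middle of the region, with a median of 5.56% against 5.14% over the list. None of the 5 lay in a dense stretch, meaning a run of 5 or more regions each within 20 kb of the next. The same held for most of the list, 1135 of 1256 regions. The Gclc pair were the 2 members with another region within 10 kb, against 18.4% of all regions and 10.3% of the 1135 regions outside dense stretches. The 4 regions at Gclc and Gclm had another within 100 kb, against 34.0% of all regions and 27.0% of those outside dense stretches. At both distances that other region was the other member of the same window, so each pair was counted from both sides. Windows of 140 kb at Gclc and 120 kb at Gclm leave little room for 2 members more than 100 kb apart. These counts therefore describe the 2 pairs and cannot show clustering beyond the membership rule.

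**Figure D3:**
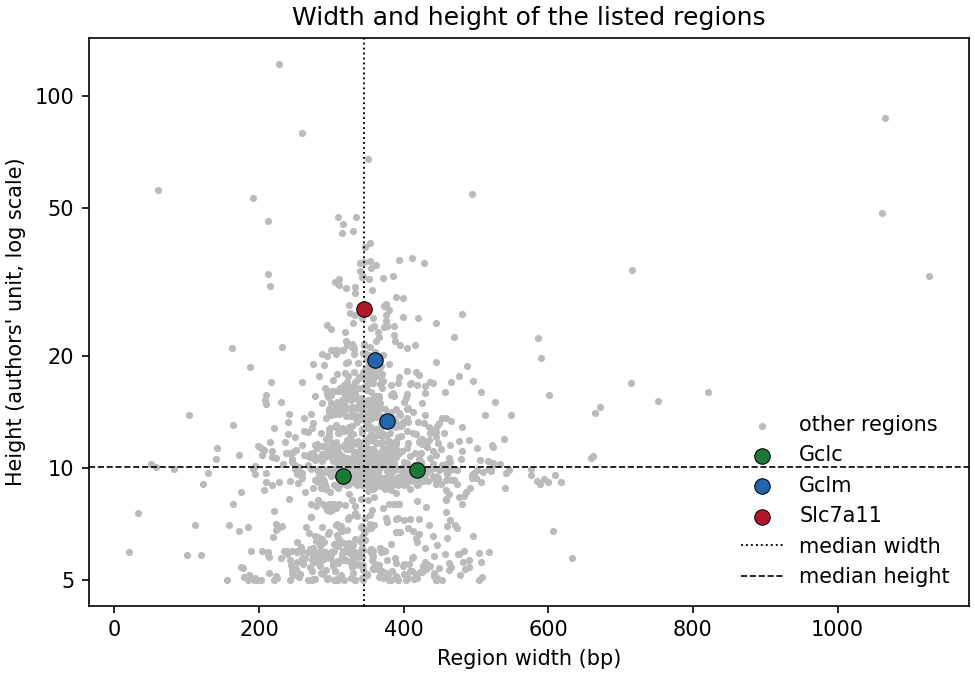
Width in bp (x axis) and height in the authors' unit on a log scale (y axis) of the listed regions. Grey points are other regions, coloured points the 5 members, and the lines mark the median width of 345 bp and the median height of 10.1. The members span widths of 316 to 419 bp, and the tallest, at Slc7a11, has the median width.

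The promoters of the genes were read to see whether they hold the letters of the element that Nrf2 recognises. RefSeq sequences of GRCm38.p6 were at hand for 3 of the 4 genes, Gclm, Slc7a11 and Gss. The 250 bases before the start site are printed below, 5′ to 3′ on the strand of the gene. Positions on this build cannot be set against the mm9 positions of the regions, so whether any region covers one of these promoters was not analysed here. Capitals mark matches, on either strand, to the antioxidant response element (letters TGACNNNGC) in Gclm and to the amino acid response element (letters TGATGCAAA) in Slc7a11. No letters are marked in Gss.
Gclm, chr3:122245307-122245556 on GRCm38.p6, forward strand: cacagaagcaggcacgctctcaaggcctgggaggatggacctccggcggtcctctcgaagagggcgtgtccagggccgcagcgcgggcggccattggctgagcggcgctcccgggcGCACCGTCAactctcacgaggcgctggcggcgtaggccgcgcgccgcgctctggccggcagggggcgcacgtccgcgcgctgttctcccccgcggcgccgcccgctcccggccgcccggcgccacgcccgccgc
Slc7a11, chr3:50443614-50443863 on GRCm38.p6, reverse strand: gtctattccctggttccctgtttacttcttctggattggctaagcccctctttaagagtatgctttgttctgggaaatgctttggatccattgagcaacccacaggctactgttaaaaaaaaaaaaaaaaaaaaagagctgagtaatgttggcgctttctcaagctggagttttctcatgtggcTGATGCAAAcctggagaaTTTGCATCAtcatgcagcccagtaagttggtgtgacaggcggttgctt
Gss, chr2:155592811-155593060 on GRCm38.p6, reverse strand: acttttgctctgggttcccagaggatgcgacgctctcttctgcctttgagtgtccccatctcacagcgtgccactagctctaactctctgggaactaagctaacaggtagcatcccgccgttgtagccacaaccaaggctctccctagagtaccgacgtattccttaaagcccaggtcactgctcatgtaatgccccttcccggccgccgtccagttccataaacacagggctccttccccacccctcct

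The Gclm promoter held 1 match to the antioxidant response element, on the reverse strand, from 134 to 126 bases before the start site. The promoters of Slc7a11 and Gss held no match to the letters TGACNNNGC in this window, and looser spellings of the element were not searched for. Of all 32841 promoters of this length in the table, 10.2% held a match. The longer form with A or G before these letters was found in none of the 3 and in 5.16% of all promoters. The AP-1 site was searched for as TGANTCA, with any base in the middle, and its letters can overlap those of an antioxidant response element. This loose spelling was found in none of the 3 and in 6.75% of all.

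The Slc7a11 promoter held the amino acid response element at 2 places: on the forward strand from 66 to 58 bases and on the reverse strand from 48 to 40 bases before the start site. This element is bound by ATF4, the transcription factor of the amino acid starvation response, and is a known feature of this gene. It was found in 0.225% of all promoters, and 2 promoters of the table, that of Slc7a11 among them, held more than 1 copy. This motif was searched for after the promoter had been read. The 3 promoters also differed in base composition. The share of G and C was 78.4% in Gclm, with 41 CG dinucleotides, 56.0% in Gss, with 10, and 43.2% in Slc7a11, with 2. The medians over all promoters were 52.4% G and C and 6 CG dinucleotides. These are descriptions of reference sequence and not measurements of binding.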

How the data were processed

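Crosslinked, sonicated chromatin was precipitated with either Nrf2 antibody and sequenced beside a control, per the labels' protocols. The deposited file lists regions with a start, an end, a highest position and a height. Per the file headers the height is a signal at the highest position. How reads were aligned, regions called and heights normalized, with what threshold, and how the 3 libraries entered the list is not stated in the labels or the file. The build is mm9, per the submitters' processing notes. Whether positions count from 0 or 1 is not stated. Depth per sample is unknown.

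Groups were taken from sample titles, with 1 library each. The 4 genes, the windows and the motifs were chosen with earlier results of these data known. All regions in the windows are named. Ranks run from the tallest height. Tiles ran from 3 Mb to the last region of each chromosome. Other glutathione genes, chosen as a list, were not analysed here because their windows need an mm9 annotation. The table of genes (GRCm38) gave neighbours only. Promoter matches were counted on both strands. The scripts were tested on simulated regions and sequences. Python 3.11.15, numpy 2.4.6, pandas 2.3.3, scipy 1.17.1 and matplotlib 3.10.9 were used. Alternatives were other window widths and placements, heights of 9 or more, joined regions, other ranked sets, shifted tiles and other motifs.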

Additional observations from a re-analysis of the deposited data

How the results depend on the processing

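The number of regions in the windows was 5 or 4 under all 7 alternatives: windows narrowed by 25 or 40 kb or widened by 50 kb, placement by the middle or by any overlap, heights of 9 or more, and regions within 1 kb joined. The narrowing by 40 kb and the search for the amino acid response element were added after seeing the data. Among the 1169 loci joined within 1 kb, the Slc7a11 rank of 49 became 44. The Gclm ranks of 113 and 321 became 105 and 303. Without dense stretches, with 1135 regions ranked, these became 39, 98 and 291. The Gclc ranks of 676 and 766 became 628 and 711 among the joined loci, and 603 and 682 without dense stretches. Fewer entries are ranked in both sets by construction, so these shifts do not show that any rank is less stable. Ranking only heights of 9 or more could not change a rank, since all 5 members reach 9. Taking the lowest rank of ties changed only the tied Gclc region, from 676 to 677. On shifted tiles the shares with a region were 6.838% for the Slc7a11 width, 5.423% for Gclc, 4.656% for Gclm and 5.055% for Gss. Shifted tiles recount the same regions, so this is not a separate check of the background. The 1 promoter match became 0 with the longer element and 0 with the AP-1 site, and the amino acid response element gave 2, both in Slc7a11. No paired analysis was possible because the list holds no values per library. Depth is unknown, so a gene without a region may lack binding or reads.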
